A study of Homo sapiens with 26 samples.

Results

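The genes described here encode 10 transcription factors that mark the differentiation state of melanoma. Mitf, Sox10, Pax3, Tfap2a and Lef1 belong to the melanocytic state, and Sox9, Zeb1, Tead1 and Tead4 to the undifferentiated, invasive state. Zeb2 is included as the relative of Zeb1 and is typical of the melanocytic side. The rule is a list of gene names and uses no measured value, though it was set with earlier results of these data known, and all 10 names are present among the 55353 gene rows of the input files. RNA came from SK-MEL-28, an established human melanoma cell line, kept untreated or exposed to salubrinal for 72 h, an inhibitor of eIF2α dephosphorylation that engages the integrated stress response (ISR). Input RNA was sequenced in 1 library per treatment. RNA from a sucrose gradient of 5 to 20%, run after cycloheximide at 100 µg/mL for 12 min, was sequenced as 40S, 60S, 80S and polysome samples with 3 replicates per treatment. Both treatments share the growth medium, the cycloheximide step and the library kit for total RNA. Neither the dose of salubrinal nor the origin of the replicates is stated in the labels. In the labels' cell line field the number after SK-MEL differs in every sample, whereas the titles all give SK-MEL-28, which was used here.

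Melanocytes arise from the neural crest under SOX10 and PAX3, which act with LEF1, CREB and other factors on the gene of MITF, the master regulator of pigment cells. MITF, SOX10 and TFAP2A then share many target genes of melanin synthesis and of the melanosome. Melanoma cells can leave this state for one with little MITF and SOX10 in which SOX9, ZEB1, AP-1 and the TEAD factors, with their coactivators YAP and TAZ, are active.

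The MITF promoters are shown because LEF1, SOX10 and PAX3 are known to act on this gene, and those of LEF1 and ZEB2 for comparison. Of the 10 genes, 6 had promoter entries in the RefSeq table (LEF1, MITF, PAX3, TFAP2A, ZEB1 and ZEB2; build GRCh38.p14), with 15 start sites. Each window holds the 250 bases before a start, 5′ to 3′ on the gene's strand. Capitals mark matches to motifs searched on both strands.
MITF, upstream start (chr3:69739214-69739463, + strand): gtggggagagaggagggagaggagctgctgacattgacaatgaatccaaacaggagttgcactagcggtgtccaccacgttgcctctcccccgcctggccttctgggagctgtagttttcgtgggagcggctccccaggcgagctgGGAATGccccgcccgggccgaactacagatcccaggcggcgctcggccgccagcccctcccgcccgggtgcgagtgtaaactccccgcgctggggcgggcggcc
MITF, middle start (chr3:69763561-69763810, + strand): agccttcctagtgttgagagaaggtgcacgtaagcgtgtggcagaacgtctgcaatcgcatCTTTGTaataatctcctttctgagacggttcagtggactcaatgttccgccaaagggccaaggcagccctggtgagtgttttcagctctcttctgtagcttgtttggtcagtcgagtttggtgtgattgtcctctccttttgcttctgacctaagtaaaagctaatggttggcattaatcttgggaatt
MITF, downstream start (chr3:69936342-69936591, + strand): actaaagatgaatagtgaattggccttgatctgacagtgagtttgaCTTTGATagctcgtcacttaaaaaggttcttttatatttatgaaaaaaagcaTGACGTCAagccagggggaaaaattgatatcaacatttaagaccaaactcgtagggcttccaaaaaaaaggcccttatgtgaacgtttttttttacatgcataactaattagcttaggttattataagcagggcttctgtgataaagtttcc
LEF1 (chr4:108166302-108166551, - strand): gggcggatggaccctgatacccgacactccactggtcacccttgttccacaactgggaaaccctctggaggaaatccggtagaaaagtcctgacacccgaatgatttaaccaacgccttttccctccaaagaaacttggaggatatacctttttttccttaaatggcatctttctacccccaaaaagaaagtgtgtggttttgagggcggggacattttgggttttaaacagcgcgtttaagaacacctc
ZEB2 (chr2:144520120-144520369, - strand): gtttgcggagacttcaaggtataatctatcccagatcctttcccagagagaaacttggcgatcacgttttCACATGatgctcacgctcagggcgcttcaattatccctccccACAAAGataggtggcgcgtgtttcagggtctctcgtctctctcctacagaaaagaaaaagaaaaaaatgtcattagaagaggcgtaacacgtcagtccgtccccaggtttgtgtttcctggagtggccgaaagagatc
The most downstream MITF start is that of the melanocyte form, MITF-M. Its window held the cyclic AMP response element TGACGTCA, bound by CREB and ATF proteins, 152 to 145 bases before the start, and the TCF/LEF motif CTTTGAT 204 to 198 bases before it. TGACGTCA was present in 1.65% and CTTTGAT in 2.26% of 35116 promoter windows of the same length. The other MITF windows held 1 TEAD motif, GGAATG (11.9% of windows), and 1 SOX motif, ACAAAG read on the opposite strand as CTTTGT (13.7%). The ZEB2 window held ACAAAG and the E-box CATGTG, read as CACATG (9.42%). None of the motifs searched was found in the LEF1 window. The other motifs were the E-box CACGTG (6.34%), the ZEB E2-box CACCTG (17.5%), the AP-1 motif TGANTCA (6.57%), the AP-2 motif GCCNNNGGC (19.8%) and an ATF4-type motif, TGATGNAA (3.14%). Of these, only the ZEB E2-box was found among the 15 windows, in 2 windows of ZEB1. The motifs of different names did not overlap in the windows shown. The matches describe letters and are no measure of binding.

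The input files held 10245548 gene-row counts with salubrinal and 12068784 without. Reads of human cells were placed on rows with mouse-style symbols, and how well they match each row was not tested, so levels of different rows are not compared, only their ratios between the libraries. Of 6 markers of pigment cells, 4 had at least 10 counts, and the summed level of the 6 was 2259.6 CPM (counts per 1000000, scaled by trimmed means, TMM) in the untreated and 1161 CPM in the salubrinal input. Most of this sum is Pmel, with 16793 untreated and 13535 salubrinal counts and a log2 ratio of salubrinal over untreated of -1.02. Dct stood at -2.37 (1374 untreated and 432 salubrinal counts). Tyr, the key enzyme of melanin synthesis, stood at -0.04 (963 and 1524 counts) and S100b at 0.15 (546 and 991). Mlana was at 0 in both libraries and Tyrp1 at 5 and 0. Markers of keratinocytes, fibroblasts, endothelium and immune cells, with 1 marker of each class at 0, summed to between 0.423 and 6.20 CPM per class. The 6 ISR genes used as a check of the treatment had log2 ratios of salubrinal over untreated from 1.82 (Atf4) to 3.20 (Asns), with Ddit3 at 2.14, Sesn2 at 2.19, Trib3 at 2.26 and Chac1 at 2.49.

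Sox10 and Mitf were the factors with the lowest ratios, and Lef1 stood on the other side. Sox10, the neural crest factor that maintains the melanocyte lineage, had 732 counts with salubrinal and 1236 without, or 51.6 and 142 CPM. This is a log2 ratio of -1.46 (95% interval -1.59 to -1.33), 2.75-fold lower. Mitf had 2598 and 3219 counts, or 183 and 369.6 CPM, a log2 ratio of -1.01 (-1.09 to -0.94), 2.02-fold lower. It thus lay just past a 2-fold difference, and its interval reached to the other side of that line. Lef1, the nuclear partner of β-catenin in Wnt signalling, had 2199 counts with salubrinal and 717 without, or 155 and 82.3 CPM. Its log2 ratio was 0.91 (0.79 to 1.04), 1.88-fold higher. With 1 library per treatment no test was possible, and the intervals, which are exact binomial ones, cover counting error only. In bulk RNA, fewer cells that express a gene and less of its RNA per cell cannot be told apart.

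Tfap2a, an AP-2 factor that works with MITF at pigment genes, was lower, and Pax3 was lower by less. Tfap2a had 361 counts with salubrinal and 401 without, 25.4 and 46.0 CPM, a log2 ratio of -0.85 (-1.07 to -0.65). Pax3, a paired-box factor of the neural crest upstream of MITF, had 381 and 278 counts, 26.8 and 31.9 CPM. Its ratio of -0.25 (-0.48 to -0.02) was 1.19-fold lower, with an interval that came close to 0. The 5 melanocytic factors thus did not share 1 direction or size: their ratios ran from -1.46 to 0.91.

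**Figure D1:**
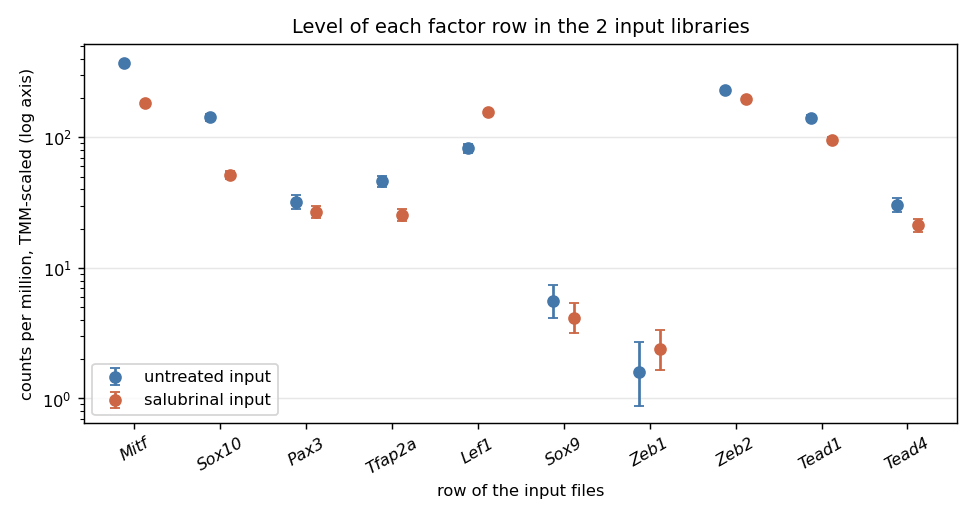
Level of each factor row in the untreated (blue) and the salubrinal (orange) input library, in TMM-scaled CPM on a log axis; bars are exact 95% Poisson intervals and cover counting error only. Sox10 stood at 142 and 51.6 CPM and Lef1 at 82.3 and 155 CPM; heights of different rows are not comparable, since row length and the match to the reference differ.

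Of Sox9, Tead1, Tead4 and the ZEB factors none was 2-fold apart between the input libraries. Sox9, which belongs with Sox10 to the SOXE group, had 59 counts with salubrinal and 49 without, 4.16 and 5.63 CPM. Its log2 ratio was -0.42 (-1.01 to 0.14), and the interval held 0. Tead1 and Tead4, DNA-binding partners of YAP and TAZ, had ratios of -0.55 (-0.67 to -0.44) and -0.53 (-0.77 to -0.29). Tead1 stood at 95.6 CPM with salubrinal and 140.3 CPM without, from 1357 and 1222 counts, and Tead4 at 21.1 and 30.5 CPM, from 300 and 266 counts. Both were lower after scaling although their raw counts were higher with salubrinal.

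The ZEB factors are zinc finger repressors of epithelial genes. Zeb2 had 2796 counts with salubrinal and 1993 without, 197 and 229 CPM, a log2 ratio of -0.22 (-0.30 to -0.13). Zeb1 had 34 and 14 counts, 2.39 and 1.61 CPM, and a ratio of 0.53 (-0.36 to 1.59). With 48 counts in all it fell below the minimum of 50 over both libraries and is left out of the counts of members below. A switch from Zeb2 to Zeb1 was not detectable at this depth, since the ratio of Zeb1 over Zeb2 between the libraries was 0.79 on the log2 scale (-0.15 to 1.81).

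**Figure D2:**
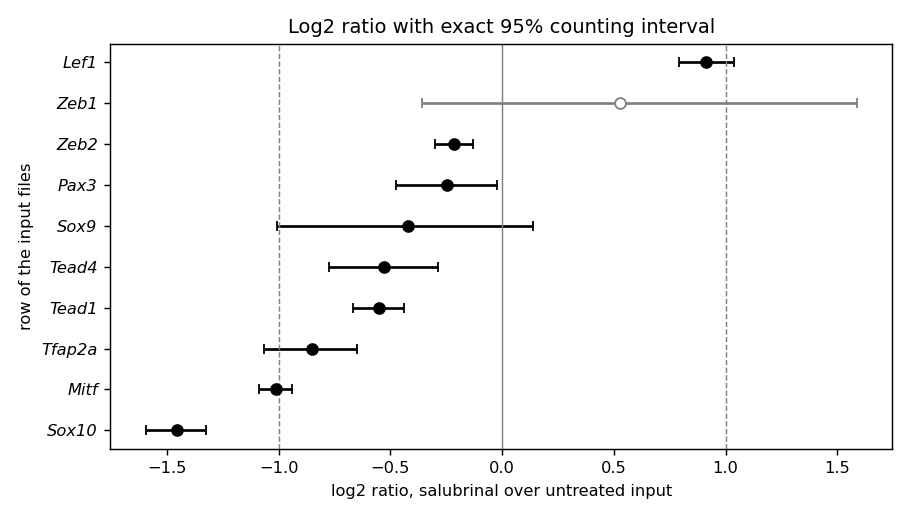
Log2 ratio of salubrinal over untreated input for the 10 factor rows, with exact 95% counting intervals; dashed lines mark a 2-fold difference, and the open grey point (Zeb1) had fewer than 50 counts. Sox10 at -1.46 and Mitf at -1.01 lay beyond the lower line, and Lef1 at 0.91 lay inside the upper one.

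Of the 9 measured factors, 2 (Sox10 and Mitf) were lower by 2-fold or more and 0 were higher by as much. The background over the 10614 rows that reached 50 counts was 3.8% lower and 2.75% higher by this rule, 6.55% either way. Of the 9, 8 had a ratio below 0, and their median was -0.53, beside 0.02 over all rows. Within all rows, 0.876% had a ratio at or below that of Sox10, 3.57% at or below that of Mitf and 5.56% at or below that of Tfap2a. For Tead1 and Tead4 the share was 13.1 and 14.0%, for Sox9 18.5%, for Pax3 28.3% and for Zeb2 30.4%. Lef1 lay at the other end, with 96.2% of rows at or below its ratio. These signs rest on the scaling. When libraries were scaled by total gene-row counts, the median of all rows moved by 0.93, and Pax3, Tfap2a, Sox9, Zeb2, Tead1 and Tead4 had ratios above 0, though 8 factors remained below the median of all rows. Sox10 was then at -0.52 and Mitf at -0.07, neither 2-fold apart, Lef1 was past 2-fold at 1.85, and 4830 rows were higher and 30 lower by 2-fold or more, in place of 292 and 403. Relative to that shift Sox10 stood at -1.44, Mitf at -0.999, Pax3 at -0.24 and Lef1 at 0.92. The row CT010467.1 alone took 12.8% of gene-row counts with salubrinal and 56.7% without.

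**Figure D3:**
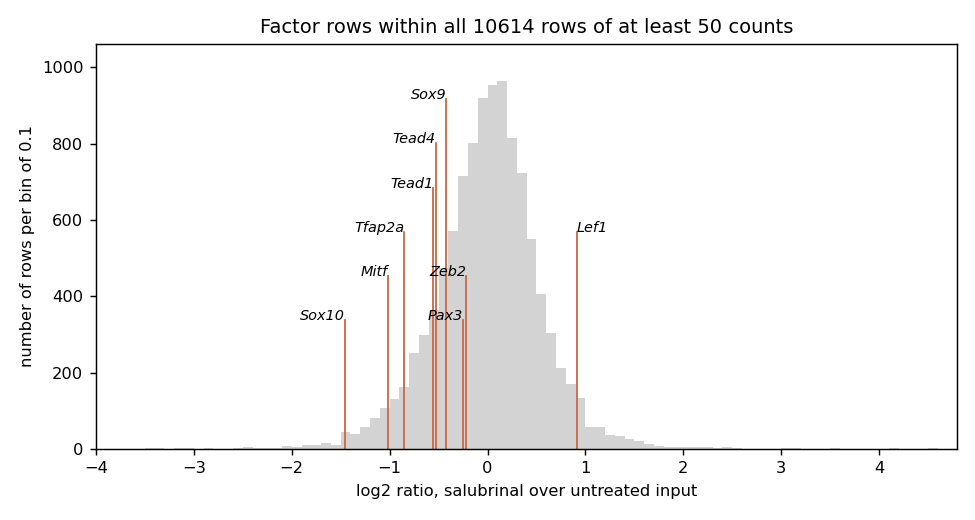
Histogram of the log2 ratio of salubrinal over untreated input over the 10614 rows with at least 50 counts (number of rows per bin of 0.1), with orange lines at the 9 measured factors; line heights only separate the names. Sox10, Mitf and Tfap2a lie in the lower tail and Lef1 in the upper one.

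Differences between factors within the 2 libraries do not depend on the scaling, because it cancels in a ratio of ratios. Of the 45 pairs of factors, 32 had a ratio of ratios whose 95% counting interval excluded 0, with no adjustment over the pairs. Sox10 was below each of the other 9 factors in this sense, also below Mitf, with Mitf over Sox10 at 0.45 (0.29 to 0.60). Lef1 was above 8 of the others, by 1.13 against Zeb2 (0.98 to 1.28), and Sox10 over Lef1 was -2.37 (-2.55 to -2.19). Its interval against the sparse Zeb1 row held 0. Mitf over Lef1 was -1.93 (-2.07 to -1.78).

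Within the set, Lef1 took 7.63% of the counts of the 10 factors in the untreated input (7.10 to 8.19%, exact binomial) and 20.3% with salubrinal (19.6 to 21.1%). Sox10 went from 13.2 to 6.77% and Mitf from 34.3 to 24.02%, while Tead1 held 13.0 and 12.5%. The size of a share, and how far it moves, depends on row length and on how well reads match each row. Shares of different rows are therefore not compared. Between the SOXE factors, Sox10 over Sox9 was -1.02 (-1.62 to -0.43). Sox10 over Pax3 was -1.21 (-1.48 to -0.95), so these factors, which act together upstream of MITF, differed in ratio. Tead1 over Tead4 was -0.02 (-0.29 to 0.25), and an unequal difference of these paralogs was not seen within that interval. Pax3 over Zeb2 was -0.03 (-0.28 to 0.21).

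Relatives of the factors that reached 50 counts were all less than 2-fold apart under TMM. In the SOX family Sox5 stood at -0.95 and Sox12 at -0.83, Sox6 at -0.44 and Sox13 at -0.37, and Sox4 at 0.22. Tfe3, the sole measured relative of Mitf (169 and 108 counts), stood at -0.06. Tcf7l2, a relative of Lef1 that also binds β-catenin, stood at 0.19 and Tcf7l1 at -0.86, from 24 and 28 counts. Lef1, at 0.91, was thus higher than both measured relatives. Tfap2c stood at 0.80 (107 and 37 counts), on the other side of 0 from Tfap2a, and Tfap4, which shares the name but is a helix-loop-helix factor, at -0.38. Tead3 stood at 0.11 from 37 and 21 counts, and Pax9 at -0.65. The epithelial-mesenchymal transition factors Snai2 and Twist1 stood at 0.25 and 0.23. On total gene-row counts the ratios of these relatives ran from -0.01 (Sox5) to 1.71 (Tfap2c), so all named above but Sox5 were then above 0, beside a median of 0.95 over all rows.

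Upstream genes had a median close to that of all rows (0.02), and cofactors one below it. Of the 17 measured cofactors, 14 had a ratio below 0, beside 5090 of 10614 rows. Of 17 measured cofactors, 1 was lower by 2-fold or more and 0 higher (background 3.8 and 2.75%), with a median of -0.18. Bcl9l, a coactivator of β-catenin, stood at -1.13 and Smarca4 (BRG1), a chromatin remodeller that MITF and SOX10 recruit, at -0.95. The counting interval of Bcl9l (-1.48 to -0.81) crossed the 2-fold line. At the other end were Wwtr1 (TAZ), the TEAD coactivator, at 0.46 and the histone deacetylase Hdac2 at 0.26. Of 16 genes that act upstream of MITF, 1 was lower by 2-fold or more and 0 higher, with a median of -0.04. This was Mc1r, the receptor for melanocyte-stimulating hormone, at -1.07, with a counting interval (-1.51 to -0.68) that crossed the 2-fold line. The catalytic subunit of protein kinase A, Prkaca, stood at -0.68. The G protein gene Gnas stood at 0.38 and the hypoxia factor Hif1a at 0.80. On total gene-row counts 0 cofactors were lower and 3 higher by 2-fold or more, and 0 upstream genes lower and 7 higher. The background was then 30 of 10614 rows lower and 4830 higher. The medians of both lists were then above 0, at 0.73 and 0.89, and below the 0.95 of all rows.

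Among the lists of target genes, that of MITF held the most rows lower by 2-fold or more. Of 26 measured MITF targets, 10 were lower by 2-fold or more and 0 higher (background 3.8 and 2.75%), with a median of -0.69. On total gene-row counts 2 were lower and 2 higher (background 30 and 4830 of 10614 rows), with a median of 0.25 beside 0.95 over all rows. The 10 under TMM included Mc1r, which is also the lower row of the upstream list. Scd1 (-1.28) and Scd2 (-1.15) were counted as separate rows, and whether both took reads of the same human gene was not tested. Pmel (-1.02) and Birc7 (41 and 52 counts) lay just past the 2-fold line, with counting intervals that reached to its other side. So did the intervals of Mc1r (-1.51 to -0.68), Scd1 (-1.63 to -0.98) and Scd2 (-1.35 to -0.96). Ppargc1a, named after its values were seen, had such an interval too (-1.44 to -0.87). The melanocyte channel gene Trpm1 stood at -2.57 and Dct, of melanin synthesis, at -2.37, while the DNA repair gene Apex1 stood at 0.11 and Mreg, of melanosome transfer, at 0.16. Of 9 measured SOX10 targets, 1 was lower by 2-fold or more and 0 higher, and this was Dct, which both lists hold; on total gene-row counts 1 was lower and 3 higher. Others of this list were the connexin gene Gjb1 at -0.84 and S100b at 0.15, and the median was -0.43, or 0.51 on total gene-row counts.

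Rows of YAP and TEAD targets had a median of 0.27, or 1.19 on total gene-row counts, above that of all rows under both scalings, while Tead1 and Tead4 stood below it under both. Of 14 measured, 2 were higher by 2-fold or more and 0 lower (background 2.75 and 3.8%). On total gene-row counts 8 were higher and 0 lower, beside a background of 4830 and 30 of 10614 rows. The 2 under TMM were Igfbp3, a binding protein of insulin-like growth factors, at 1.59 and the membrane repair gene Myof at 1.095. For Myof the counting interval (0.96 to 1.24) crossed the 2-fold line. Lowest were Asap1 and Rbms3, both at -0.33. Targets of Wnt signalling and LEF1 had a median of -0.29, or 0.64 on total gene-row counts, below that of all rows, while Lef1 stood above it. Of 10 measured, 1 was lower by 2-fold or more and 0 higher, or 0 and 3 on total gene-row counts. Axin2, a feedback inhibitor and common readout of the pathway, stood at -1.20 from 42 and 61 counts. Its counting interval (-1.85 to -0.65) crossed the 2-fold line. Porcn, needed for Wnt secretion, stood at -0.73. The Wnt antagonist Dkk1 stood at 0.33 and the receptor gene Tnfrsf19 at 0.18.

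Epithelial genes that ZEB factors repress were sparse, with 17 of 19 rows below 50 counts. The other 2, named after their values were seen, were the splicing regulator Esrp1 at -1.17 and Grhl1 at 0.31. Mesenchymal genes had a median of 0.18 over 9 measured rows, with 0 of them 2-fold apart, or 1.12 and 6 on total gene-row counts. The background on that scale, also for the lists below, was 4830 of 10614 rows higher and 30 lower by 2-fold or more. Cd44 and Vim stood at 0.52 and 0.49 and Tnc and Spock1 at -0.40 and -0.35. In a list of AP-1 factors and relatives with 9 measured rows, Fosl1, which is typical of undifferentiated melanoma, was at least 2-fold higher at 1.08. Fos was at least 2-fold lower at -1.03. Both counting intervals crossed the 2-fold line, at 0.68 to 1.54 for Fosl1 and -1.32 to -0.76 for Fos. Nfe2l2 and Maff, which are not FOS or JUN genes, stood at 0.39 and -0.71, and the median of the list was 0.02. On total gene-row counts 3 rows of this list were higher and 0 lower by 2-fold or more, with Fosl1 at 2.01 and Fos at -0.09. Of 27 other lineage or state factors, 2 were lower by 2-fold or more and 0 higher (background 3.8 and 2.75%), namely Nfic at -1.41 and Runx3 at -1.09. On total gene-row counts 0 were lower and 9 higher, with a median of 0.90, Nfic at -0.50 and Runx3 at -0.16. The TMM counting intervals of Nfic (-2.01 to -0.92) and Runx3 (-1.43 to -0.78) crossed the 2-fold line. Under TMM, Runx1 at 0.85 and Tbx3 at 0.71 were highest, with a median of -0.03. Among 121 rows of all lists with at least 200 counts, those nearest to Mitf in ratio were Pmel (-1.02), Fos (-1.03) and Mc1r (-1.07), and those nearest to Sox10 were Slc45a2 (-1.51), Scd1 (-1.28) and Oca2 (-1.64); with 2 libraries, likeness means no more than a close ratio.

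**Figure D4:**
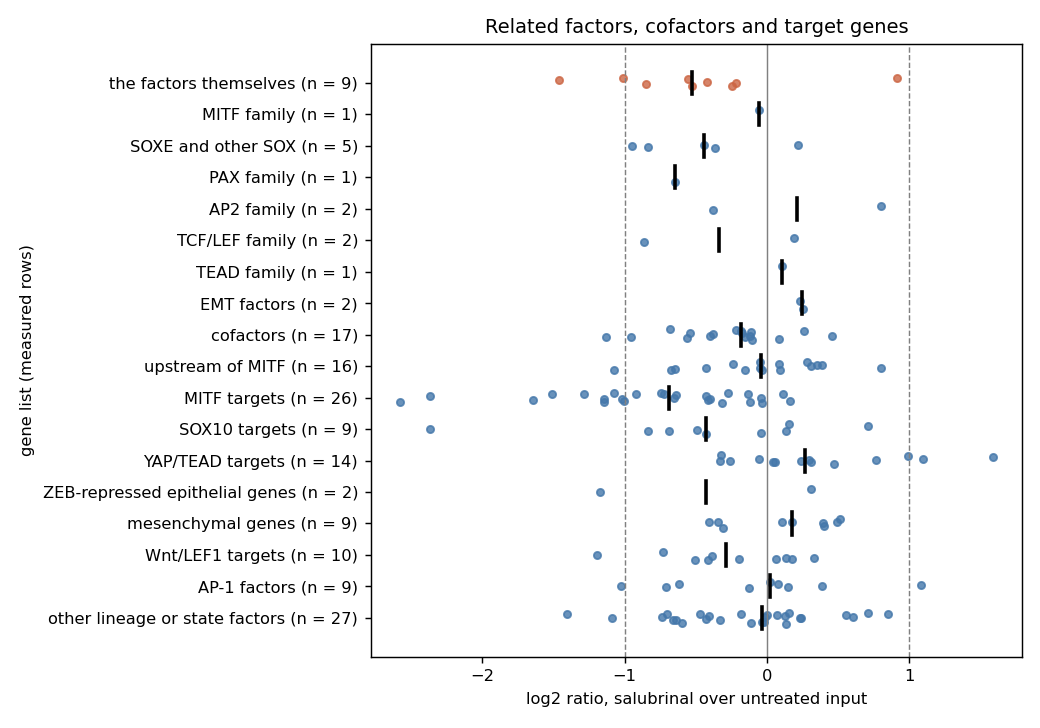
Log2 ratio of salubrinal over untreated input for each measured row (at least 50 counts) of the factors (orange) and of related gene lists (blue); black bars are list medians, dashed lines a 2-fold difference, and vertical scatter within a list has no meaning. MITF targets have a median of -0.69 and YAP/TEAD targets one of 0.27.

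In the gradient files the factors were close to the limit of detection. Outside ribosomal RNA (rRNA) no difference beyond sampling noise was found between the 4 fraction files of a library, after the placement of 40S files given below. Chi-square per degree of freedom was 0.936 to 1.04, with a smallest Benjamini-Hochberg p = 0.537. The chi-square test used 116 and 28 rows in salubrinal libraries 1 and 2, where it could show little, and 372 to 1353 in the others. The untreated 40S files titled 1 and 2 were placed with libraries 2 and 1 by the same statistic. Against the libraries of their own titles, chi-square per degree of freedom was 1.917 and 2.095 for these files. As placed it was 0.803 and 0.98. For untreated libraries 1 and 2 the likeness of the 40S file to the others was thus partly fixed by the placement, and is no separate check of it. The files were summed into 3 libraries per treatment. These held 3768 to 93743 counts outside rRNA. Here rRNA means the nuclear rRNA rows, so the mitochondrial rRNA rows MT-RNR1 and MT-RNR2 are part of the counts outside rRNA. Of the 10 human-named rows, 7 had any count, with 5 counts over the salubrinal and 47 over the untreated libraries, from 87524 and 202856 counts outside rRNA. PAX3, SOX9 and ZEB1 were at 0 in all 24 files. MITF had 2 counts in all, both untreated. None of the 10 had enough counts for the test, in which 52 of 913 rows were called (5.7%; 3.61% higher and 2.08% lower with salubrinal) by edgeR's quasi-likelihood test at a Benjamini-Hochberg threshold of 0.05. This number ran from 8, without untreated library 1 or 3, to 117, without salubrinal library 2, when single libraries were left out.

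SOX10 held most of what there was. It had 18, 4 and 10 counts in untreated libraries 1, 2 and 3 and 0, 0 and 4 in salubrinal libraries 1, 2 and 3. Per 100000 counts outside rRNA this was 20.8, 17.7 and 10.7 in the untreated and 5.44 in salubrinal library 3 (Poisson interval 1.48 to 13.9). Salubrinal libraries 1 and 2 were shallow, and a count of 0 there allows up to 29.5 and 79.6 per 100000, above each untreated value. The interval of salubrinal library 3 overlapped that of every untreated library. With the low-count filter removed, edgeR put SOX10 at -1.65 on the log2 scale with an adjusted p = 0.634, so it did not pass. By fraction, the untreated counts were 16 in 40S, 4 in 60S, 6 in 80S and 6 in polysome, and the salubrinal counts 3, 1, 0 and 0. POLR2F, which overlaps SOX10 by position, had 6 counts in all.

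Antisense rows named after the factors held more counts than the factors' own rows. LEF1-AS1, ZEB2-AS1, TFAP2A-AS1, SOX9-AS1 and ZEB1-AS1 together had 140 counts over the 24 files, against 11 on the rows of the 5 genes themselves. LEF1-AS1 had 104 of them, with 26, 11 and 25 in the untreated and 5, 2 and 35 in the salubrinal libraries, while LEF1 had 4. The library kit marks strand, per the labels, but the strand setting of the counting is not stated, and which gene of each pair these reads come from was not tested. LEF1-AS1 was the one row of the set or its neighbours that entered the test. Scaled by TMM it stood at 3.76, 6.66 and 3.34 CPM untreated and at 8.04, 8.05 and 6.71 CPM with salubrinal. The closest untreated and salubrinal values, 6.66 and 6.71 CPM, differed by little on this scale, and per 100000 counts outside rRNA the groups overlapped. The difference of 0.81 ± 0.41 on the log2 scale (SE) over 3 libraries per treatment did not pass edgeR's test, with an adjusted p = 0.271. On library sizes alone it was -0.39, with the median of all rows moved from -0.07 to -1.30. ZEB2-AS1 had 8, 1 and 8 counts untreated and 0, 0 and 7 with salubrinal, and TFAP2A-AS1 6, 2 and 3 against 1, 0 and 0; per 100000 counts outside rRNA both had overlapping groups.

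**Figure D5:**
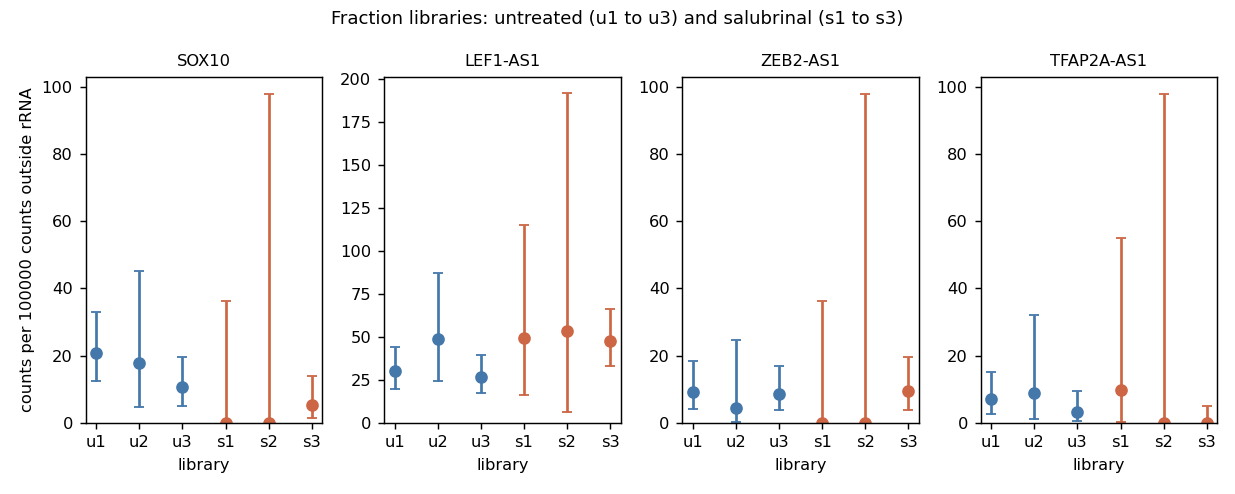
Counts per 100000 counts outside rRNA for SOX10 and 3 antisense rows in the summed fraction libraries, untreated u1 to u3 (blue) and salubrinal s1 to s3 (orange); bars are exact 95% Poisson intervals, and each panel has its own scale. SOX10 stood at 20.8, 17.7 and 10.7 untreated and at 0, 0 and 5.44 with salubrinal, with wide intervals in s1 and s2.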

How the data were processed

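The submitters' processing notes name hg19 as the build and list HTSeq 0.5.3p3, DESeq, STAR, FastQC 0.11.5 and, for alignments, SAMtools 0.1.19.24. They give no STAR version and no strand setting. The deposited values are read counts per gene, which the authors did not normalize. Rows that name no gene were left out; gene rows held 7.06 and 5.94% of counts in the salubrinal and control inputs. No source used here names the reference behind the mouse-style rows.

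Input CPM were scaled by TMM factors of edgeR 4.0.16 in R 4.3.3. The log2 ratio used a prior count of 2, and a row was measured with at least 50 counts over both libraries. Intervals are exact at 95%. Summed fraction libraries were compared with edgeR (filterByExpr, TMM, robust quasi-likelihood); a standard error was taken as the size of the log2 difference over the normal quantile of its p. DESeq2 1.42.0 was an alternative. Whether replicates were separate cultures is not stated, so p-values measure only the spread between these samples, which may be technical. On simulated counts for 765 genes the fraction test recovered 26.7% of genes set to differ by 1 (log2). It recovered 96.4% of those at 2 and 100% of those at 3, and called 0.503% of the others. The simulation gave every library the mean composition, at its full depth with rRNA rows, and 1 dispersion for all genes. It did not mimic the shallow depth outside rRNA of salubrinal libraries 1 and 2, so recovery in these data was not measured.

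Overlap with other genes came from a RefSeq table of GRCh38.p14, by position. Members and lists were chosen with earlier results of these data known. Named were all 10 factors, measured relatives, and the 2 highest and 2 lowest rows of each other list with at least 5 measured rows, all ISR check rows, rows with at least 200 counts nearest to Mitf or Sox10, and antisense or overlapping rows in the fractions; 1 row that this rule names is not reported here.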

Additional observations from a re-analysis of the deposited data

How the results depend on the processing

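The input ratios of the 10 factors kept their direction with DESeq2 size factors, with TMM without the abundant rows, and with prior counts of 0.5 and 5. On total gene-row counts Sox10 was -0.52, Mitf -0.07 and Lef1 1.85, and the ratios of Pax3 (0.69), Tfap2a (0.084), Sox9 (0.49), Zeb2 (0.72), Tead1 (0.39) and Tead4 (0.41) turned positive, as did the factors' median (0.41). Then 0 factors were at least 2-fold lower and 1 higher, and 30 rows lower and 4830 higher, in place of 403 and 292. With a minimum of 10 counts 746 rows were at least 2-fold lower and 649 higher, and with 200 counts 170 and 141. Under both minima 2 factors were lower and 0 higher.

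In the summed fraction libraries edgeR called 52 rows, 33 higher and 19 lower. It called 4 without the filter, 79 at a minimum of 50 counts, 91 without rRNA rows, and 8 to 117 when 1 library was left out: 38, 117 and 15 without salubrinal library 1, 2 or 3, and 8, 49 and 8 without control library 1, 2 or 3. DESeq2 called 24. Added after the data were seen, the 40S files as titled gave 89 and library sizes alone gave 0, with 0 at an unadjusted p under 0.05. The replicate block gave 24. The deviations of same-numbered libraries correlated at -0.02, 0.17 and 0.32, so the numbers were not taken to pair samples. The adjusted p of LEF1-AS1 ran from 0.137 to 0.916 over these settings. Salubrinal libraries 1 and 2, with 10158 and 3768 counts outside rRNA, limit what the fractions can show for every factor.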
